A study of Homo sapiens with 5 samples.

Results

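Cholesterol and fatty acid synthesis are controlled by the sterol regulatory element-binding proteins, SREBPs, which are made as precursors anchored in the membrane of the endoplasmic reticulum. SCAP escorts the precursors to the Golgi, where proteases release the part that enters the nucleus and binds the promoters of its targets. INSIG proteins hold SCAP in the endoplasmic reticulum when sterols are plentiful. The genes described here are 33 listed parts of that system, chosen by gene symbol: regulators, enzymes of cholesterol synthesis, cholesterol transporters and enzymes of fatty acid synthesis. Of these, 32 were matched among the 18257 rows of the count table, and all 32 had at least 1 CPM (counts scaled to the library's total over the tested genes and its TMM factor) in at least 2 libraries, as did 12234 genes in all. The lowest value of any matched gene in a library was 4.59 CPM, for CYP51A1, so none lay just under that limit. SC5DL was not analysed here.

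The libraries were poly(A) RNA of HEK293 T-Rex FLAG:DICER1 FLP-IN cells, which derive from human embryonic kidney and hold an inserted tagged copy of DICER1, and were sampled 18 h after transfection. They comprise 2 libraries with siRNAs against DICER1, 2 with siRNAs against DROSHA, and 1 control library, the mock. All groups, the mock included, carry the tagged insert. Each library of a pair received a different siRNA, so the spread within a pair includes any difference between siRNA sequences, and the labels name no separate cultures. DICER1 and DROSHA are the nucleases that cut microRNA precursors in the cytoplasm and the nucleus.

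Total counts lay between 7620206 and 8736455 per library. DICER1 mRNA stood at 74.1 and 67.7 CPM with DICER1 siRNA 1 and 2, and at 243 CPM in the mock. DROSHA mRNA stood at 41.2 and 41.9 CPM with DROSHA siRNA 1 and 2, and at 191 CPM in the mock, so the targeted mRNA was about equally low with either DROSHA siRNA. DROSHA siRNA 2 stood apart from the other libraries across all genes. Between it and each other library, chi-square over its degrees of freedom was 7.36 to 9.50, against 2.61 to 5.78 among the other 4 libraries. All 6 marker genes listed for HEK293 were detected, NEFM at only 8 to 17 counts, and their summed level ran from 807 CPM in DROSHA siRNA 2 to 1033 CPM in DICER1 siRNA 2. Markers of hepatocytes, adipocytes, blood and endothelium, 14 of 15 of them matched, summed to at most 1.27 CPM per cell type in any library.

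Both SREBP genes are themselves microRNA hosts, and their sequences are shown because DROSHA and DICER1 would process these hairpins. In RefSeq on GRCh38.p14, miR-33b lies in an intron of SREBF1 and miR-33a in an intron of SREBF2. Capitals mark the seed, bases 2 to 8 of the mature RNA, which the 2 share.
hsa-miR-33a-5p, chr22:41900949-41900969, plus strand: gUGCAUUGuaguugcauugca
hsa-miR-33b-5p, chr17:17813897-17813916, minus strand: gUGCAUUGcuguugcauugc
The libraries hold poly(A) RNA and give no level for either microRNA. The site that pairs with this seed, CAATGCA, was found in the longest annotated 3' UTR of 2 of 32 pathway genes, 6.25%, and in 8.98% of 16885 genes of the table. These were SCAP, with tgtgtgggggcCAATGCActgaacctgga, and LSS, with caattggatcaCAATGCAgaggagtctgt, the site in capitals. A match is a run of letters, not a shown site.

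Most pathway genes had their lowest level in DROSHA siRNA 2. Of 32 genes, 21 had their lowest level of the 5 libraries there, 65.6%, beside 26.0% of all tested genes. DICER1 siRNA 1 and 2 held the lowest level of 1 and 4 genes (15.7% and 20.4% of all tested genes), DROSHA siRNA 1 of 5 (18.4%) and the mock of 1 (19.4%). Levels lay below the mock for 29 of 32 genes in DROSHA siRNA 2, with a median log2 ratio of -0.25, where 50.0% of all tested genes lay below. In DROSHA siRNA 1, 24 of 32 lay below the mock with a median of -0.07, where 51.0% of all tested genes lay below. In DICER1 siRNA 1 and 2, 20 and 24 lay below, where 50.4% and 49.3% of all tested genes did, with medians of -0.05 and -0.06. The median over all tested genes was within 0.01 of 0 in each library. In bulk RNA, a lower level in every cell and a loss in some of the cells cannot be told apart.

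**Figure D1:**
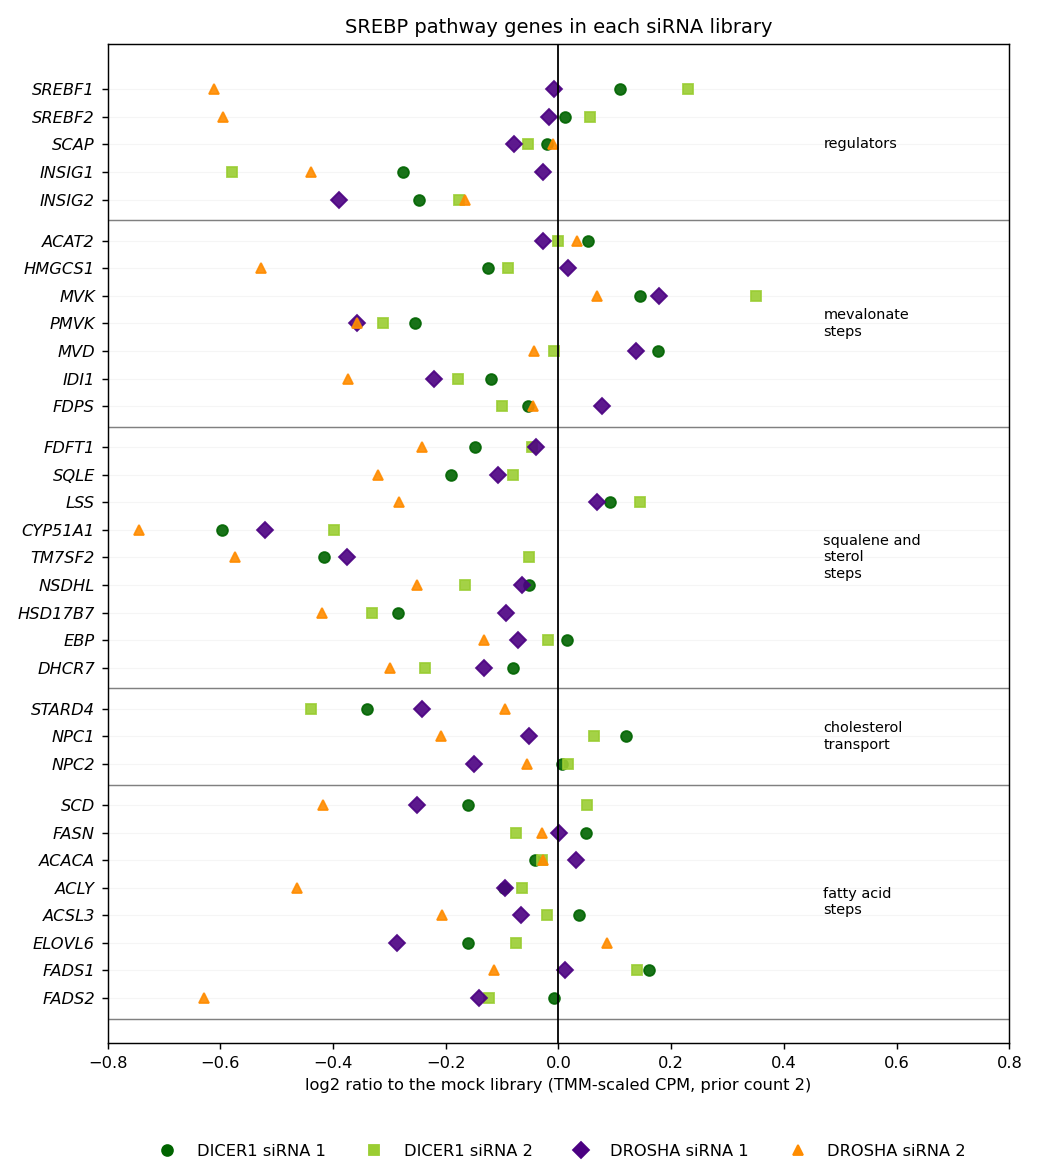
Log2 ratio of each siRNA library to the mock for 32 SREBP pathway genes, grouped by role. Each point is 1 library and the line at 0 is the mock. The DROSHA siRNA 2 triangles lie both farthest left and below 0 for 21 genes, among them all 9 genes of the squalene and sterol steps.

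By size, 12 of 32 genes were at least 1.25-fold below the mock in DROSHA siRNA 2, 37.5%, beside 12.5% of all tested genes. The counts were 4 genes in DROSHA siRNA 1 (7.34% of all tested genes), 3 in DICER1 siRNA 1 (6.94%) and 4 in DICER1 siRNA 2 (9.26%). Higher by that fold than the mock was 1 gene, MVK in DICER1 siRNA 2, where 9.02% of all tested genes were, and 0 genes in DICER1 siRNA 1 (7.22%), DROSHA siRNA 1 (5.92%) and DROSHA siRNA 2 (7.67%). Each of these counts sets 1 library beside 1 other and is a description with no test. The summed level of the 32 genes was 4210 CPM in DROSHA siRNA 2, 84.0% of the 5011 CPM in the mock. It was 95.1% of the mock in DROSHA siRNA 1, and 96.7% and 96.2% in DICER1 siRNA 1 and 2.

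**Figure D2:**
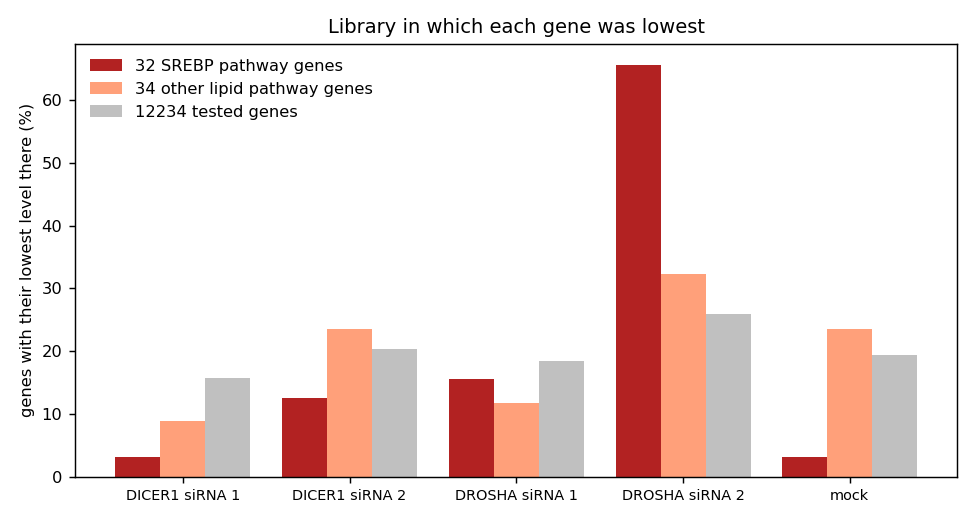
Share of genes whose lowest level of the 5 libraries was in each library, for 32 SREBP pathway genes, 34 other lipid pathway genes and all 12234 tested genes. DROSHA siRNA 2 held the lowest level of 65.6% of the pathway genes and of 26.0% of all tested genes.

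The libraries were then compared as groups, in 1 quasi-likelihood fit of edgeR to all 12234 genes, and no pathway gene passed in any comparison. For DROSHA against mock the adjusted p ran from 0.978 to 0.998 over the 32 genes, and 1 gene in all passed (0.00817% of those tested). In DICER1 against mock it ran from 0.865 to 0.998, again with 1 gene in all passing (0.00817%). In DICER1 against DROSHA it ran from 0.523 to 0.994, with 2 genes in all passing (0.0163%). The genes that passed were DICER1 and DROSHA themselves. DESeq2 also called 0 pathway genes in each comparison. The p-values rest on the spread within the siRNA pairs, which may be technical, the mock is a single library assumed to vary like the pairs, and the standard error of a pathway gene's log2 fold change had a median of 0.12 against the mock.

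In DROSHA against mock, 22 of 32 genes were lower in both DROSHA libraries, beside 32.5% of all tested genes, and 1 was higher in both, beside 31.5%. The median log2 fold change was -0.16, and -0.005 over all tested genes. It was -0.07 without DROSHA siRNA 2 and -0.25 without DROSHA siRNA 1. At an unadjusted p under 0.05 there were 4 genes, all lower, beside 1.62% of all tested genes lower and 2.07% higher at that level, and these were SCD, PMVK, IDI1 and CYP51A1. In DICER1 against mock, 19 of 32 genes were lower in both DICER1 libraries, beside 36.4%, and 7 were higher in both, beside 36.7%. The median was -0.07, and 0.0005 over all tested genes, with 1 gene, STARD4, at an unadjusted p under 0.05 and lower, beside 2.98% of all tested genes lower and 2.48% higher. Both comparisons share the single mock, the library in which 15 of 32 pathway genes had their highest level, beside 19.1% of all tested genes.

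Set against each other, 12 of 32 genes were higher in both DICER1 libraries than in both DROSHA libraries, beside 20.9% of all tested genes, and 3 were lower, beside 20.0%. The median log2 difference, DICER1 minus DROSHA, was 0.09. It was 0.14 without DROSHA siRNA 1 and 0.05 without DROSHA siRNA 2. SREBF1 and SCD were the 2 genes at an unadjusted p under 0.05, both higher in DICER1 libraries, beside 4.02% of all tested genes higher and 4.32% lower.

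Among the regulators, the 2 transcription factor genes were low in DROSHA siRNA 2 alone. SREBF2, which mainly drives cholesterol synthesis genes, stood at 211 and 218 CPM with DICER1 siRNA 1 and 2, at 207 and 138 CPM with DROSHA siRNA 1 and 2, and at 209 CPM in the mock. The other 4 libraries thus spanned 0.07 on the log2 scale, and DROSHA siRNA 2 stood at 66.1% of the mock. SREBF1, the source of the isoform that mainly drives fatty acid synthesis genes, stood at 65.1 and 70.7 CPM with DICER1 siRNA 1 and 2, at 59.9 and 39.4 CPM with DROSHA siRNA 1 and 2, and at 60.3 CPM in the mock. It too was at 65.3% of the mock in DROSHA siRNA 2 and at 99.4% in DROSHA siRNA 1, and the counts do not separate its isoforms. The log2 fold changes in DROSHA against mock were -0.28 ± 0.23 (SE) for SREBF1 and -0.28 ± 0.21 (SE) for SREBF2, so the 2 DROSHA libraries disagreed by more than the mean change. In DICER1 against DROSHA they were 0.45 ± 0.19 (SE) and 0.31 ± 0.17 (SE), with DICER1 and DROSHA libraries not overlapping in either gene.

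SCAP, the escort, was nearly level. It stood at 99.5 and 97.1 CPM with DICER1 siRNA 1 and 2, at 95.5 and 100.2 CPM with DROSHA siRNA 1 and 2, and at 101 CPM in the mock. INSIG1, itself a textbook SREBP target, stood at 128 and 103 CPM with DICER1 siRNA 1 and 2, at 152 and 114 CPM with DROSHA siRNA 1 and 2, and at 154 CPM in the mock. It was therefore low in both DICER1 libraries and in DROSHA siRNA 2, and its lowest level was with DICER1 siRNA 2, at 66.9% of the mock. Its log2 fold change was -0.42 ± 0.19 (SE) in DICER1 against mock (edgeR adjusted p = 0.869) and -0.22 ± 0.19 (SE) in DROSHA against mock (edgeR adjusted p = 0.978). INSIG2, the related retention protein, stood at 16.5 and 17.3 CPM with DICER1 siRNA 1 and 2, at 14.9 and 17.5 CPM with DROSHA siRNA 1 and 2, and at 19.6 CPM in the mock. All 4 siRNA libraries lay below the mock for INSIG2, with DROSHA siRNA 1 lowest, the opposite order of the DROSHA libraries from that of INSIG1.

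**Figure D3:**
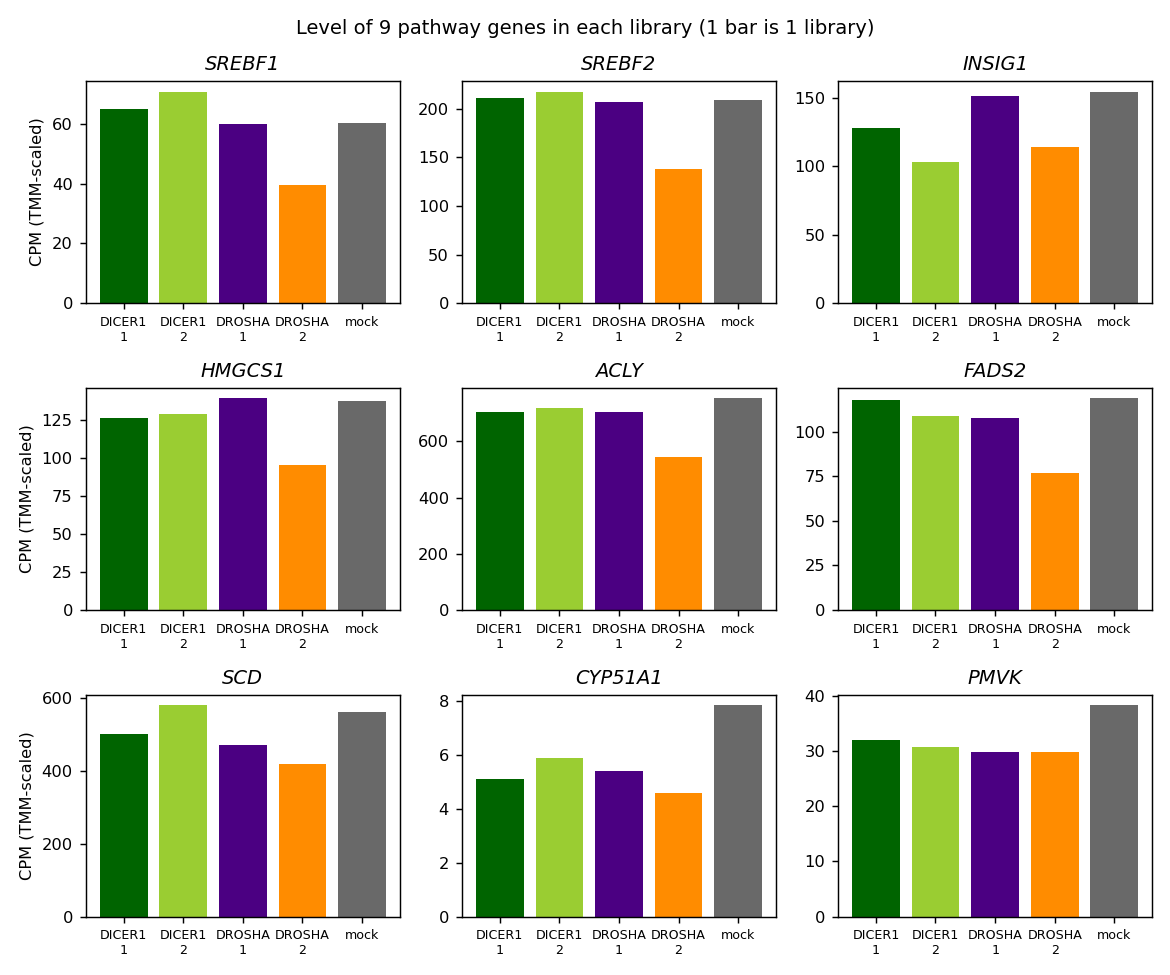
Level of 9 pathway genes in each library, as TMM-scaled CPM, with 1 bar per library. SREBF1, SREBF2, HMGCS1, ACLY and FADS2 are lowest in DROSHA siRNA 2, and CYP51A1 and PMVK are highest in the mock.

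The promoter of SREBF2 is shown because that gene is also a target of its own product, with those of HMGCS1 and ACLY, enzymes whose mRNA was also low in DROSHA siRNA 2. Sequences are the 250 bases before the RefSeq start on GRCh38.p14. Capitals mark the sterol regulatory element TCACNCCAC and the CCAAT box, the site of the cofactor NF-Y, read on either strand, where a CCAAT box on the other strand appears as ATTGG.
SREBF2, chr22:41832855-41833104, plus strand: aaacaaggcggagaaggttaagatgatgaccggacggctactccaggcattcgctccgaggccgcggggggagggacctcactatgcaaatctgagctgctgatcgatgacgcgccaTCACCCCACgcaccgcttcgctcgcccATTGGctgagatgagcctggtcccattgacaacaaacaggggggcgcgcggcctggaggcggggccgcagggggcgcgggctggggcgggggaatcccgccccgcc
HMGCS1, chr5:43313413-43313662, minus strand: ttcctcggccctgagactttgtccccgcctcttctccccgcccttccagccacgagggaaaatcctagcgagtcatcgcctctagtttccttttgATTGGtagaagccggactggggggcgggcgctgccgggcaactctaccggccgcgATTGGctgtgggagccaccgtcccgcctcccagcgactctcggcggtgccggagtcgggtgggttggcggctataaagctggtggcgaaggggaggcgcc
ACLY, chr17:41919023-41919272, minus strand: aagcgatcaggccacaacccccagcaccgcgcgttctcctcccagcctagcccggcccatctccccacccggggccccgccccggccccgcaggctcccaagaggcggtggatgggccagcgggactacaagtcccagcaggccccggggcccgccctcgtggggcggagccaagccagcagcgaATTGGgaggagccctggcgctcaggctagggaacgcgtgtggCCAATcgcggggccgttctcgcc

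RefSeq promoters, 250 bases before to 50 after the start, were matched for 28 of the 32 genes. The element TCACNCCAC was found in 1 of 28, SREBF2, where it starts 133 bases before the gene start, and in 1.07% of 9344 tested genes with a promoter. The CCAAT box was found in 17 of 28, 60.7%, beside 36.9% of those tested genes and 48.1% of 27 other lipid pathway genes. The GC box GGGCGG, bound by Sp1, was found in 26 of 28, 92.9%, beside 71.3% of the tested genes and 77.8% of the other lipid pathway genes. SREBF1 and FADS2, also low in DROSHA siRNA 2, had no match for the element or for the CCAAT box. INSIG1 and HSD17B7, low there as well, had a CCAAT box and not the element. No match in these windows says only that the letters are not there, and other spellings of the sterol element were not searched.

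The mevalonate steps turn acetyl units into farnesyl diphosphate, and here the genes did not move together. HMGCS1, which makes the HMG-CoA from which mevalonate derives, stood at 126 and 129 CPM with DICER1 siRNA 1 and 2, at 139 and 95.5 CPM with DROSHA siRNA 1 and 2, and at 138 CPM in the mock. DROSHA siRNA 2 was at 69.3% of the mock while DROSHA siRNA 1 was at 101%, and the log2 fold change over both was -0.23 ± 0.20 (SE). An antisense gene covers 14.95% of its exon bases in GENCODE 29, and without the strand its reads cannot be told apart from those of HMGCS1. PMVK, a kinase of the mevalonate chain, showed another pattern, with 32.1 and 30.8 CPM for DICER1 siRNA 1 and 2, 29.8 and 29.8 CPM for DROSHA siRNA 1 and 2, and 38.3 CPM in the mock. All 4 siRNA libraries were low and close to each other, at -0.36 ± 0.12 (SE) in DROSHA against mock (edgeR adjusted p = 0.978) and -0.29 ± 0.12 (SE) in DICER1 against mock (edgeR adjusted p = 0.865). IDI1, which isomerises isopentenyl diphosphate, stood at 134 and 128 CPM with DICER1 siRNA 1 and 2, at 125 and 112 CPM with DROSHA siRNA 1 and 2, and at 145 CPM in the mock. It was again highest in the mock, at -0.29 ± 0.10 (SE) in DROSHA against mock.

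MVK, the kinase that acts on mevalonate itself, was the single gene of the 32 above the mock in all 4 siRNA libraries, beside 19.4% of all tested genes. It stood at 25.0 and 28.9 CPM with DICER1 siRNA 1 and 2, at 25.6 and 23.7 CPM with DROSHA siRNA 1 and 2, and at 22.6 CPM in the mock, a log2 fold change of 0.26 ± 0.15 (SE) in DICER1 against mock. FDPS, which makes farnesyl diphosphate, stood at 70.4 and 68.2 CPM with DICER1 siRNA 1 and 2, at 77.1 and 70.9 CPM with DROSHA siRNA 1 and 2, and at 73.1 CPM in the mock, with 8 pseudogenes bearing its name. ACAT2, a cytosolic thiolase, and MVD, the decarboxylase of the chain, had log2 fold changes between 0.003 and 0.09 in both comparisons with the mock. In GENCODE 29 the exons of ACAT2 overlap those of SOD2 and TCP1 on the opposite strand. Over the 7 genes the median was 0.003 for DROSHA against mock and -0.08 for DICER1 against mock.

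Of the squalene and sterol steps, all 9 genes had their lowest level of the 5 libraries in DROSHA siRNA 2, and 7 of 9 were below the mock in all 4 siRNA libraries, beside 19.1% of all tested genes. Their summed level was 83.0% of the mock in DROSHA siRNA 2, 95.3% in DROSHA siRNA 1, and 94.3% and 95.6% in DICER1 siRNA 1 and 2. LSS, which folds squalene epoxide into lanosterol, stood at 111 and 115 CPM with DICER1 siRNA 1 and 2, at 109 and 85.4 CPM with DROSHA siRNA 1 and 2, and at 104 CPM in the mock. It was above the mock in 3 siRNA libraries and below it in DROSHA siRNA 2, at 82.2% of the mock. CYP51A1, which removes a methyl group from lanosterol, had 39 and 49 counts with DICER1 siRNA 1 and 2, 47 and 36 counts with DROSHA siRNA 1 and 2, and 66 counts in the mock. Its log2 fold changes were -0.65 ± 0.24 (SE) in DROSHA against mock (edgeR adjusted p = 0.978) and -0.51 ± 0.23 (SE) in DICER1 against mock (edgeR adjusted p = 0.870), the most negative values among the 32 genes and on the fewest counts. In GENCODE 29, 79.35% of the exon bases of CYP51A1 also lie in exons of another protein-coding entry on the same strand, and 3 pseudogenes bear its name, so its counts are uncertain.

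TM7SF2, a sterol reductase, stood at 11.3 and 14.6 CPM with DICER1 siRNA 1 and 2, at 11.6 and 10.1 CPM with DROSHA siRNA 1 and 2, and at 15.1 CPM in the mock. HSD17B7, which acts in removing methyl groups from the sterol ring, stood at 9.82 and 9.51 CPM with DICER1 siRNA 1 and 2, at 11.3 and 8.92 CPM with DROSHA siRNA 1 and 2, and at 12.0 CPM in the mock. Both were highest in the mock and, at 70 to 127 counts per library, were measured with wide error, and 2 pseudogenes bear the name of HSD17B7. DHCR7, which completes cholesterol from its dehydro precursor, stood at 107 and 95.9 CPM with DICER1 siRNA 1 and 2, at 103 and 91.9 CPM with DROSHA siRNA 1 and 2, and at 113 CPM in the mock. EBP, the sterol isomerase, spanned only 106 to 118 CPM over the 5 libraries. The remaining 3 genes were FDFT1, the squalene synthase, SQLE, the squalene epoxidase, and NSDHL, which acts beside HSD17B7. They had log2 fold changes from -0.21 to -0.14 in DROSHA against mock and from -0.13 to -0.10 in DICER1 against mock.

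The 3 cholesterol transport genes did not share a pattern. STARD4, a cytosolic sterol carrier, stood at 50.4 and 47.0 CPM with DICER1 siRNA 1 and 2, at 54.0 and 59.8 CPM with DROSHA siRNA 1 and 2, and at 63.9 CPM in the mock. DROSHA siRNA 2 was the siRNA library nearest to the mock here, and the DICER1 libraries were lowest, at -0.39 ± 0.12 (SE) in DICER1 against mock (edgeR adjusted p = 0.865). NPC1, which moves cholesterol out of lysosomes, stood at 75.0 and 72.1 CPM with DICER1 siRNA 1 and 2, at 66.5 and 59.7 CPM with DROSHA siRNA 1 and 2, and at 69.0 CPM in the mock. NPC2, its soluble lysosomal partner, stood at 39.5 and 39.8 CPM with DICER1 siRNA 1 and 2, at 35.5 and 37.9 CPM with DROSHA siRNA 1 and 2, and at 39.4 CPM in the mock. In both, the DICER1 libraries lay above the mock and the DROSHA libraries below it, by at most 0.21 on the log2 scale. With SREBF1 and SREBF2 that made 4 of 32 genes on those sides, beside 5.03% of all tested genes, and for NPC2 the DICER1 libraries were only 0.006 and 0.02 above the mock.

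Of the 8 fatty acid genes, 5 had their lowest level of the 5 libraries in DROSHA siRNA 2. ACLY, which supplies cytosolic acetyl-CoA, stood at 704 and 719.7 CPM with DICER1 siRNA 1 and 2, at 705 and 545 CPM with DROSHA siRNA 1 and 2, and at 753 CPM in the mock. FADS2, a desaturase of polyunsaturated fatty acids, stood at 118 and 109 CPM with DICER1 siRNA 1 and 2, at 107 and 76.6 CPM with DROSHA siRNA 1 and 2, and at 119 CPM in the mock. DROSHA siRNA 2 was thus at 72.5% of the mock for ACLY and at 64.6% for FADS2, and the other 3 siRNA libraries were at 90.6% or more for both. SCD, which makes monounsaturated fatty acids, stood at 501 and 579 CPM with DICER1 siRNA 1 and 2, at 470.0 and 419 CPM with DROSHA siRNA 1 and 2, and at 559 CPM in the mock. SCD was low with both DROSHA siRNAs, at -0.33 ± 0.11 (SE) in DROSHA against mock (edgeR adjusted p = 0.978), and 0.28 ± 0.09 (SE) in DICER1 against DROSHA (edgeR adjusted p = 0.523).

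FASN, the fatty acid synthase and the most counted gene of the 32, was level, at 1053 and 966 CPM with DICER1 siRNA 1 and 2, 1019 and 998 CPM with DROSHA siRNA 1 and 2, and 1018 CPM in the mock. Its log2 fold change was -0.01 ± 0.07 (SE) against the mock in each knockdown. ACACA, which makes malonyl-CoA, spanned 203 to 214 CPM over the 5 libraries, and ACSL3, which activates long-chain fatty acids, 182 to 215 CPM. FADS1, the other desaturase of the FADS pair, stood at 97.6 and 96.1 CPM with DICER1 siRNA 1 and 2, at 87.9 and 80.6 CPM with DROSHA siRNA 1 and 2, and at 87.3 CPM in the mock. Its exons overlap those of FADS2 by 490 bases on the opposite strand in GENCODE 29. The sources used here do not say how reads of that stretch were counted. ELOVL6, an elongase, ran against the group, at 44.1 and 46.8 CPM with DICER1 siRNA 1 and 2, 40.4 and 52.4 CPM with DROSHA siRNA 1 and 2, and 49.4 CPM in the mock. It was the 1 pathway gene of the 32 with its highest level in DROSHA siRNA 2.

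The difference between the 2 DROSHA siRNA libraries was then described on its own. Of 32 genes, 26 were lower with DROSHA siRNA 2 than with DROSHA siRNA 1, where 50.2% of all tested genes were, and 8 were lower by at least 1.25-fold, beside 11.5% of all tested genes, with 1 higher, beside 8.55%. Between the DICER1 siRNAs, siRNA 2 against siRNA 1, 17 of 32 genes were lower, where 49.6% of all tested genes were. There 0 genes were lower by that fold, beside 6.61%, and 1 was higher, beside 6.08%. The exact 95% binomial interval of the count ratio lay below 1 for 13 of 32 genes, beside 13.6% of all tested genes, and above 1 for 1, beside 13.4%. Such an interval covers counting error only and compares 2 libraries, not 2 treatments. It narrows as counts rise, and the tested genes reach down to the limit of 1 CPM. Their shares are therefore not matched to the pathway genes in depth. The ratios were 0.657 (0.569 to 0.758) for SREBF1, 0.670 (0.620 to 0.722) for SREBF2, 0.685 (0.624 to 0.750) for HMGCS1 and 0.713 (0.642 to 0.791) for FADS2. INSIG1 followed at 0.751 (0.689 to 0.818), ACLY at 0.773 (0.744 to 0.804) and LSS at 0.784 (0.709 to 0.866). The 2 SREBP genes thus had the lowest ratios of the 32, and SCAP, ACAT2, FASN and ACACA had intervals that include 1.

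**Figure D4:**
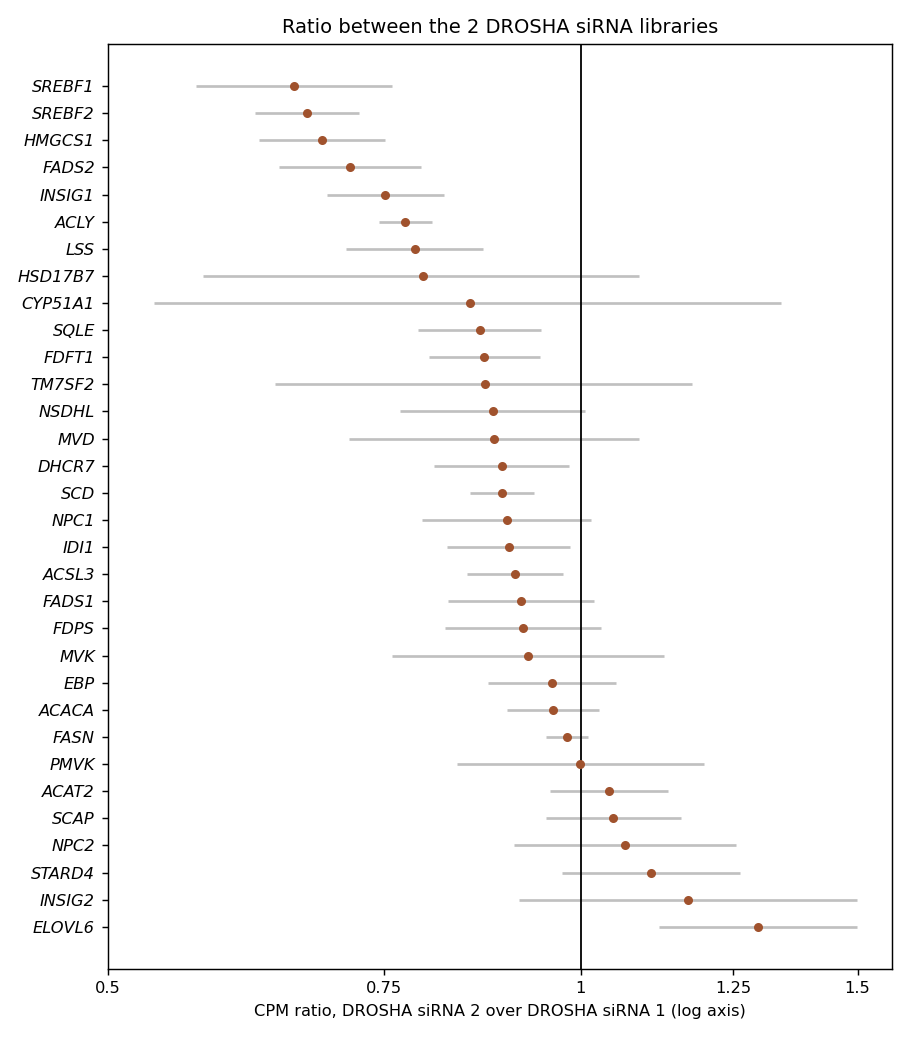
Ratio of TMM-scaled CPM in DROSHA siRNA 2 over DROSHA siRNA 1 for 32 pathway genes on a log axis, ordered by ratio, with exact 95% binomial intervals for counting error. SREBF1 and SREBF2 have the lowest ratios, and ELOVL6 is the gene whose interval lies above 1.

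Lower by at least 1.25-fold in DROSHA siRNA 2 than in both DROSHA siRNA 1 and the mock were 7 of 32 genes, beside 7.93% of all tested genes: SREBF1, SREBF2, INSIG1, HMGCS1, HSD17B7, ACLY and FADS2. HSD17B7 rested on 70 counts with DROSHA siRNA 2 and 98 with DROSHA siRNA 1, and the interval of its ratio, 0.575 to 1.09, includes 1. With DROSHA siRNA 1 left out, DROSHA siRNA 2 alone against the mock gave 4 pathway genes past edgeR's test, all lower, beside 1.90% of all tested genes. The spread then comes from the DICER1 pair alone, and the lone DROSHA and mock libraries are assumed to vary like it. These were ACLY at -0.47 (edgeR adjusted p = 0.00641), SREBF2 at -0.60 (0.0127), FADS2 at -0.63 (0.0288) and HMGCS1 at -0.53 (0.0381), while SREBF1 at -0.62 did not pass (0.0561). In DICER1 against DROSHA siRNA 2 alone, 5 passed, beside 3.78% of all tested genes, namely SREBF1 at 0.79 (edgeR adjusted p = 0.00925), SREBF2 at 0.63 (0.00428), FADS2 at 0.56 (0.0209), HMGCS1 and ACLY. Without DROSHA siRNA 2, 0 pathway genes passed in either comparison, and HMGCS1 stood at 0.02 against the mock.

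In the mock, set per kilobase of exon so that genes can be compared, ACLY, FASN and SCD were the most abundant, at 144, 109 and 104 CPM per kilobase. EBP at 48.3 and INSIG1 at 42.3 CPM per kilobase came next. SREBF2 stood at 27.7 and SREBF1 at 7.51 CPM per kilobase. The lowest levels were 2.19 for CYP51A1, 2.51 for HSD17B7 and 3.49 CPM per kilobase for MVK. Lengths are all exon bases of a gene in GENCODE 29, which lowers the value of genes with many annotated exons.

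Other genes of lipid metabolism, 34 genes of a list separate from the 32, were set beside the same background. In DROSHA siRNA 2 their median log2 ratio to the mock was -0.07, and 2 of 34 were at least 1.25-fold lower, 5.88%, beside 12.5% of all tested genes. In edgeR's test 0 of 34 passed in any comparison. At an unadjusted p under 0.05, 1 was higher and 2 were lower for DICER1 against mock, beside 2.48% and 2.98% of all tested genes. For DROSHA against mock 1 was higher and 0 were lower, beside 2.07% and 1.62%, and in the DICER1 libraries 1 was higher and 2 were lower than in the DROSHA libraries, beside 4.02% and 4.32%. ELOVL5, an elongase of polyunsaturated fatty acids, stood at 202 and 133 CPM with DICER1 siRNA 1 and 2, at 258 and 262 CPM with DROSHA siRNA 1 and 2, and at 255 CPM in the mock. ERLIN2, which with ERLIN1 forms a complex that helps degrade proteins of the endoplasmic reticulum, stood at 95.8 and 50.7 CPM with DICER1 siRNA 1 and 2, at 100.3 and 157 CPM with DROSHA siRNA 1 and 2, and at 144 CPM in the mock. Both were lowest with DICER1 siRNA 2, and their log2 fold changes in DICER1 against mock were -0.61 ± 0.21 and -0.98 ± 0.37 (SE, edgeR adjusted p = 0.865 for each).

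VLDLR, a lipoprotein receptor, was above the mock in all 4 siRNA libraries, at 16.8 and 17.1 CPM with DICER1 siRNA 1 and 2, 15.5 and 15.6 CPM with DROSHA siRNA 1 and 2, and 12.0 CPM in the mock. ERLIN1 was also above it in all 4, with log2 fold changes of 0.30 ± 0.11 (SE) in DROSHA against mock and 0.15 ± 0.11 (SE) in DICER1 against mock. SOAT1, which esterifies cholesterol, had log2 fold changes of -0.26 ± 0.12 (SE) in DROSHA against mock and -0.23 ± 0.12 (SE) in DICER1 against mock. ABCG1, a sterol exporter, stood at 7.07 and 8.18 CPM with DICER1 siRNA 1 and 2, and at 4.82 and 5.48 CPM with DROSHA siRNA 1 and 2. The DICER1 and DROSHA libraries did not overlap for ABCG1, at 0.57 ± 0.20 (SE) in DICER1 against DROSHA (edgeR adjusted p = 0.541).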

How the data were processed

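The submitters' processing notes name STAR, HTSeq, edgeR and CASAVA 1.8.2 and the build hg19, without saying what each did. The authors deposited raw read counts per gene symbol, with no normalization. The sources used here do not say whether counting used strand. Each column's name matched 1 sample. Genes with at least 1 CPM in 2 of 5 libraries were kept, TMM factors were taken, and edgeR 4.0.16 in R 4.3.3 (quasi-likelihood F test, group as the only term, all 5 libraries) was run with Benjamini-Hochberg adjustment over all genes and a limit of 0.05. DESeq2 1.42.0 was an alternative. Standard errors are the log2 fold change over the square root of F. Log2 ratios of single libraries use a prior count of 2. The steps were tested on simulated data with planted changes larger than any seen in the pathway genes. That test does not cover changes of their size.

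The pathway genes, the list of other lipid genes and the 1.25-fold limit were chosen with earlier results of these data known. Named genes are the 5 regulators and, per role and comparison, the 3 with the smallest unadjusted p. HMGCS1, ACLY and others were also followed after their values were seen. Exon lengths, overlaps, microRNA host genes and 3' UTRs come from GENCODE 29 (GRCh38), and promoter and microRNA sequences from RefSeq on GRCh38.p14. Coordinates are of that build, not of hg19. The siRNA numbers name different siRNAs and do not pair the libraries.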

Additional observations from a re-analysis of the deposited data

Results flagged for a closer look

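For 4 of 32 genes both DICER1 libraries lay above the mock and both DROSHA libraries below it, as for 5.03% of all tested genes, and 0 genes lay the other way round, beside 4.49% of all tested genes. The mean log2 difference, DICER1 minus DROSHA, was 0.48 for SREBF1, 0.34 for SREBF2, 0.22 for NPC1 and 0.11 for NPC2, with DICER1 higher each time. In edgeR's test of that difference none passed, with adjusted p of 0.595, 0.665, 0.603 and 0.777. For SREBF1 and SREBF2, DROSHA siRNA 1 lay within 0.02 of the mock on the log2 scale, as did both DICER1 libraries for NPC2.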

How the results depend on the processing

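The count of pathway genes called was 0 in every comparison with all libraries, under each scaling, without the filter and with DESeq2. When 1 siRNA library was left out, pathway genes were called only without DROSHA siRNA 1, in a fit whose spread comes from the DICER1 pair alone. The pathway median in DICER1 against mock, -0.07, was -0.0517 with library totals alone, -0.0762 without the filter, and -0.0630 to -0.0532 with 1 DICER1 library left out. Genes called over the whole table in DICER1 against mock, 1 with the settings of the report, were 3 without the filter, 5 with DESeq2, 7 with the libraries of those 2 groups alone and 0 without either DICER1 library. In DROSHA against mock, 1 under each setting with both DROSHA libraries, they were 20 to 233 with 1 DROSHA library left out, and in DICER1 against DROSHA, 2 with the settings of the report, they were 12 without the filter, 24 with DESeq2 and 1 to 462, with 1 siRNA library left out. With the siRNA number as a replicate block over the 4 siRNA libraries, 3 genes were called, 0 of them pathway genes, and same-numbered libraries deviated together with r = 0.02 over genes. Among the genes followed by the naming rule in each comparison, log2 values that changed sign were HMGCS1 in DROSHA against mock (-0.53 to 0.0172), and in DICER1 against DROSHA SCAP (-0.0284 to 0.0410, and -0.0130 without DICER1 siRNA 1), INSIG1 (-0.39 to 0.0187) and INSIG2 (-0.0460 to 0.18). The other genes were not followed across settings, and for 9 of 32 genes the 2 DROSHA libraries did not lie on the same side of the mock. The cause was not tested.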
